A study of Homo sapiens with 6 samples.

Results

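The 37 genes of the human mitochondrial genome were followed in FaDu cells that did or did not carry an NSUN2 hairpin. They were taken as all genes whose symbol begins with MT-, and they are 37 of 58825 gene identifiers in the count table: 13 mRNAs, 2 rRNAs and 22 tRNAs. FaDu is an established line of hypopharyngeal squamous carcinoma. One group (FaDu) carried no hairpin and the other (shNSUN2) carried a short hairpin RNA that targets NSUN2, with 3 libraries each of total RNA. A control hairpin without a target is not among the libraries analysed here, so loss of NSUN2 and the presence of a hairpin share 1 comparison, and the labels give neither the hairpin's vector and delivery nor the time of harvest. Nothing says that replicates came from separate cultures, so p-values measure only how these samples vary, which may be technical variation.

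Mitochondrial DNA is a small circle read from both strands into long RNAs that carry many genes. The transcript read from the heavy strand holds both rRNAs, most mRNAs and most tRNAs, and the transcript read from the light strand holds MT-ND6 and the remaining tRNAs. In what is called tRNA punctuation, enzymes cut out the tRNAs that lie between the longer genes and so release the mRNAs and rRNAs. The mRNAs encode core subunits of respiratory complexes I, III and IV and of ATP synthase, and the rRNAs and tRNAs serve the mitochondrial ribosome that translates them. NSUN2 places 5-methylcytosine on tRNAs, mainly those of the cytosol, and has also been described as a methyltransferase of some mitochondrial tRNAs.

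Of the 37 genes, 28 lay on the heavy strand transcript (12 mRNAs, 2 rRNAs and 14 tRNAs) and 9 on the light strand transcript (MT-ND6 and 8 tRNAs). In the GENCODE 29 annotation of GRCh38, 20 pairs of neighbouring genes abutted with no base between them and 5 overlapped. The tRNAs that rose or fell are shown here because the tRNA results turn on them, and MT-TC because it had the most counts of the tRNAs. Each is written 5′ to 3′ as DNA letters of the reference transcript, with the anticodon in capitals where a script found a stem of 5 base pairs (at least 4 formed) around a loop of 7 bases that held it.
MT-TF (tRNA-Phe, heavy strand, chrM:577-647): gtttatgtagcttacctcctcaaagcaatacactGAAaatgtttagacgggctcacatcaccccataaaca
MT-TR (tRNA-Arg, heavy strand, chrM:10405-10469): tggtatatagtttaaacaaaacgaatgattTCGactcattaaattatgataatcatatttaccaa
MT-TH (tRNA-His, heavy strand, chrM:12138-12206): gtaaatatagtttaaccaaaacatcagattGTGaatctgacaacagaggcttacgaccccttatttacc
MT-TS2 (tRNA-Ser, heavy strand, chrM:12207-12265, no such loop found): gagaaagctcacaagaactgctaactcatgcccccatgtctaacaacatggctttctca
MT-TT (tRNA-Thr, heavy strand, chrM:15888-15953): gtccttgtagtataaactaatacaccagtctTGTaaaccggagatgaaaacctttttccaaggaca
MT-TP (tRNA-Pro, light strand, chrM:15956-16023): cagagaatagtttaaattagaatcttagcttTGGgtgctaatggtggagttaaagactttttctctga
MT-TC (tRNA-Cys, light strand, chrM:5761-5826): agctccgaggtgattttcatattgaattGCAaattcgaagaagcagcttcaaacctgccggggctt

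NSUN2 checked the labels, with FaDu values of 169, 173 and 156 CPM (the usual CPM unit for a gene's part of its library, scaled by edgeR's TMM method) and shNSUN2 values of 50.4, 34.7 and 39.6 CPM. All 12 epithelial markers looked at, squamous and simple, were detected. Their summed levels were 4810 to 4992 CPM in FaDu and 4150 to 5011 CPM in shNSUN2, but these sums hold opposite changes. KRT5 averaged 1180 CPM in FaDu and 542 CPM in shNSUN2, and KRT8 averaged 265 and 1344 CPM. Of the 12 markers, 8 were called lower, among them the basal keratins KRT14 (log2 fold change -2.16) and KRT5 (-1.12). Called higher were 3, the simple epithelial keratins KRT8 (2.34) and KRT18 (1.73) and EPCAM (0.57). Beside these and the marker counts below, 9.97% of all tested genes were called lower and 8.54% higher. Of the markers of other cell types, PTPRC and MS4A1 were listed at 0 in all 6 libraries, and the 8 prostate markers summed to 29.3 to 32.2 CPM in FaDu and 52.1 to 68.4 CPM in shNSUN2, with 5 of 8 called higher. The summed levels of the other lists were 31.8 to 52.5 CPM in FaDu and 39.2 to 46.8 CPM in shNSUN2 for leukocytes and 140 to 169 against 179 to 221 CPM for plasma cells. They were 9.04 to 9.58 against 6.44 to 11.6 CPM for fibroblasts, 5.95 to 7.51 against 32.4 to 55.1 CPM for endothelial cells and 33.7 to 38.4 against 18.3 to 35.4 CPM for smooth muscle. The endothelial sum was carried by CDH5, at 1.39 CPM in FaDu and 39.6 CPM in shNSUN2 on average, while ERG was called lower (-2.18) and VWF did not pass the test. The plasma cell sum was carried by SDC1, at 153 CPM in FaDu and 193 CPM in shNSUN2 on average. SDC1 did not pass the test (edgeR adjusted p = 0.112). Of the 4 tested plasma cell markers, 3 immunoglobulin genes were called higher. Their means were 0 to 0.0178 CPM in FaDu and 0.730 to 1.41 CPM in shNSUN2. Members above 5 CPM in a group included CD14, CD68, SDC1, COL1A1, CDH5, MYLK, ACTA2, KLK3, KLK2, ACP3, SLC45A3 and TMPRSS2. The part of other cell types in the mitochondrial values was not tested. Totals were 53612358 to 72788971 estimated counts per library.

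All 37 mitochondrial genes had counts in every library and all passed the filter on low counts. In FaDu they took 10.1%, 9.88% and 8.71% of the counts of a library, and in shNSUN2 5.58%, 6.56% and 5.04%. The groups did not overlap, and the mean fell to 0.599 times the FaDu level. A share shows only what part of the sequenced RNA was mitochondrial: fewer mitochondrial RNAs per cell and more of other RNAs cannot be told apart. Of the 13 mRNAs, 10 fell and 0 rose by edgeR's quasi-likelihood test with Benjamini-Hochberg adjustment over 19081 genes at 0.05. Of all tested genes 9.97% were called lower and 8.54% higher. None of the mRNAs was higher at an unadjusted p under 0.05 either, and DESeq2 also called 10 lower and 0 higher (9.66% and 9.04% of its tested genes). Of the rRNAs 1 rose, and of the 22 tRNAs 4 rose and 2 fell. The median log2 fold change was -0.77 for mRNAs and -0.08 for tRNAs, beside -0.01 for all tested genes.

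**Figure D1:**
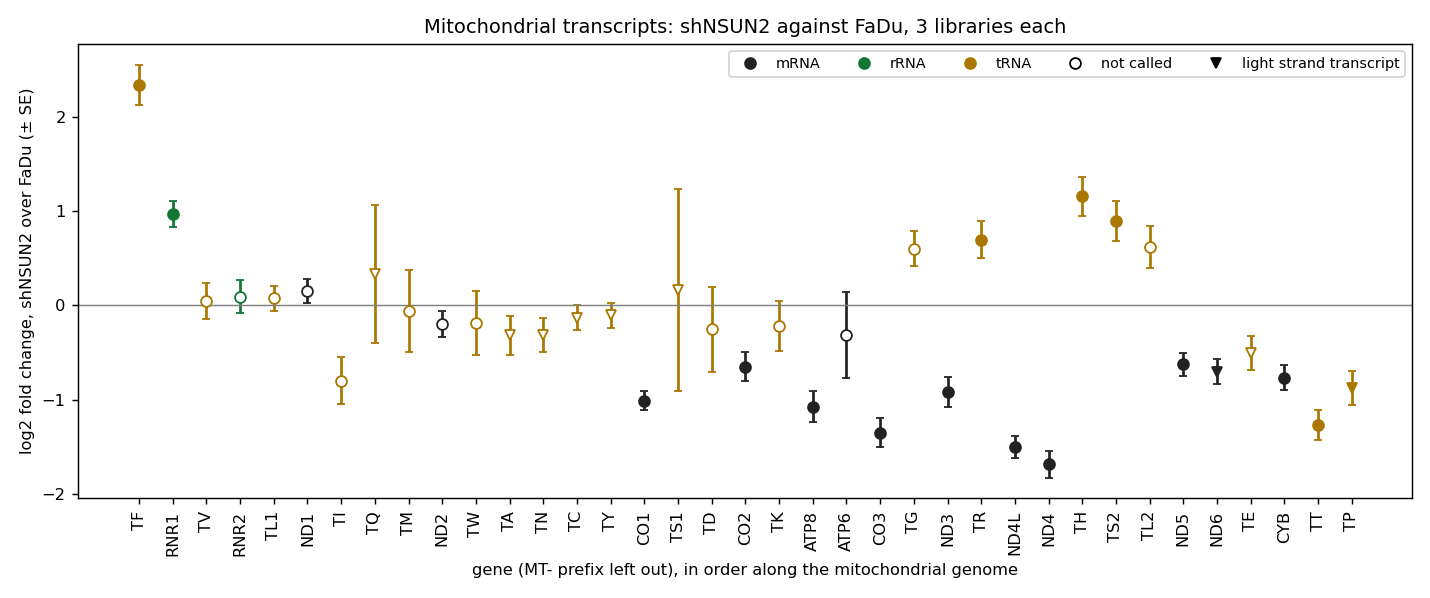
Log2 fold change of each mitochondrial gene (shNSUN2 over FaDu, ± SE, 3 libraries each) against the order of the genes along the genome, with filled symbols for genes called at an edgeR adjusted p under 0.05 and triangles for the light strand transcript. The mRNAs from MT-CO1 onwards lie below 0, whereas MT-TF, MT-RNR1 and the tRNAs from MT-TG to MT-TL2 lie above it.

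At the start of the heavy strand transcript, 2 genes were higher in shNSUN2. MT-TF, the first gene, which encodes tRNA-Phe, had 3.02, 2.48 and 3.67 CPM in FaDu and 12.7, 16.1 and 17.6 CPM in shNSUN2. Every shNSUN2 library was above every FaDu library, and MT-TF had the largest log2 fold change of the 37 genes, at 2.34 (SE 0.21, edgeR adjusted p = 0.000787). The adjoining MT-RNR1, the 12S rRNA of the small mitochondrial ribosomal subunit, had 1639, 1351 and 1338 CPM in FaDu and 2399, 3029 and 3046 CPM in shNSUN2. Its groups were also separate, and it rose by 0.97 (SE 0.14, edgeR adjusted p = 0.00398). Both calls held when any single library was left out, with log2 fold changes of 2.21 to 2.49 for MT-TF and 0.91 to 1.08 for MT-RNR1.

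The next genes, MT-TV and MT-RNR2, did not pass the test. MT-TV, the tRNA-Val between the rRNAs, had 3.53, 3.08 and 3.41 CPM in FaDu and 3.74, 3.03 and 3.55 CPM in shNSUN2, so its groups overlapped. MT-RNR2, the 16S rRNA of the large subunit, had 12654, 12664 and 13421 CPM in FaDu and 11710, 17810 and 11748 CPM in shNSUN2. Replicate 2 of shNSUN2 alone lay above FaDu and the other two lay below it, and the log2 fold change of 0.09 (SE 0.17) turned to -0.14 without that library. Per kb of transcript, the 16S level was 5.48 times the 12S level in FaDu and 2.98 times in shNSUN2. The log2 ratio of 12S to 16S per length was -2.24, -2.52 and -2.62 in FaDu and -1.58, -1.85 and -1.24 in shNSUN2. These ratios did not overlap and differed by 0.90, with an exact two-sided permutation p = 0.1, the smallest that 3 against 3 libraries allow (0.15 adjusted over 3 ratios).

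A list of RNAs that mostly lack a long poly(A) tail was read beside the rRNAs. Of its 12 tested genes 5 fell and 7 did not pass edgeR's test, where 9.97% of all tested genes were called lower. The 5 that fell are small noncoding RNAs made by RNA polymerase III. RN7SK, which holds the elongation factor P-TEFb inactive, had 41.1, 14.2 and 9.16 CPM in FaDu and 1.52, 1.62 and 0.889 CPM in shNSUN2. RN7SL1 and RN7SL2, the RNA of the signal recognition particle, had log2 fold changes of -0.84 and -0.89, and RMRP and RPPH1, the RNAs of RNase MRP and RNase P, of -3.63 and -2.81. TERC had no more than 0.0134 CPM in any library. The 7 tested members of the list that did not pass had log2 fold changes of -1.10 to 0.71. MT-RNR1 and MT-TF were higher in shNSUN2, and the part of library make-up in these results was not tested.

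Among mRNAs, the first pair of the heavy strand transcript was not called, and neither was MT-ATP6 further along. MT-ND1, a complex I subunit, had 2293, 2064 and 1736 CPM in FaDu and 2294, 2120 and 2339 CPM in shNSUN2, which overlapped (log2 fold change 0.15, SE 0.13, edgeR adjusted p = 0.453). MT-ND2, also of complex I, had 4760, 4281 and 3429 CPM in FaDu and 3745, 3783 and 3343 CPM in shNSUN2, which overlapped too (-0.20, SE 0.14, edgeR adjusted p = 0.361). Neither difference passed the test, and with SEs of this size small changes were not detectable. For all 13 mRNAs the lowest FaDu library was replicate 3.

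The 3 mRNAs of complex IV, cytochrome c oxidase, all fell. MT-CO1, its catalytic subunit, had 22184, 22327 and 20102 CPM in FaDu and 10385, 11163 and 10467 CPM in shNSUN2, or 49.5% of the FaDu mean (log2 fold change -1.01, SE 0.10, edgeR adjusted p = 0.00103). MT-CO2, which takes electrons from cytochrome c, had 11820, 10476 and 7907 CPM in FaDu and 6259, 6479 and 6509 CPM in shNSUN2 (-0.65, SE 0.15, edgeR adjusted p = 0.0226). MT-CO3 had 8110, 7744 and 5525 CPM in FaDu and 2858, 2753 and 2754 CPM in shNSUN2, 39.1% of the FaDu mean (-1.35, SE 0.15, edgeR adjusted p = 0.00178). In each of these genes the highest shNSUN2 library lay below the lowest FaDu library, as it did for 22.1% of all tested genes. The MT-CO2 call was lost without FaDu replicate 1 or 2 or shNSUN2 replicate 1 or 2, with adjusted p of 0.0545 to 0.0885.

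The 2 mRNAs of ATP synthase share 1 RNA and overlap by 46 bases. That stretch is printed because it holds the start codon of MT-ATP6 and the stop codon of MT-ATP8, both in capitals.
MT-ATP8 and MT-ATP6 overlap (heavy strand, chrM:8527-8572): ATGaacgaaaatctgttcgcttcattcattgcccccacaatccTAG
MT-ATP8 had 1418, 1345 and 954 CPM in FaDu and 613, 621 and 527 CPM in shNSUN2 and fell by 1.08 on the log2 scale (SE 0.16, edgeR adjusted p = 0.00514). MT-ATP6 had 2184, 1979 and 1484 CPM in FaDu and 938, 2720 and 879 CPM in shNSUN2, so replicate 2 alone lay above every FaDu library. With all libraries it was at -0.32 on the log2 scale (SE 0.46, edgeR adjusted p = 0.683), and without shNSUN2 replicate 2 it was -1.05 (adjusted p = 0.0143). The log2 ratio of MT-ATP8 to MT-ATP6 per length was 1.09, 1.16 and 1.08 in FaDu, 1.10 and 0.98 in shNSUN2 replicates 1 and 3 and -0.41 in replicate 2 (exact two-sided permutation p = 0.3 for the group difference).

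MT-ATP6 has a near-identical nuclear copy, MTATP6P1 on chromosome 1, whose counts were 53.5% of those of MT-ATP6. MTATP6P1 had 1352, 1227 and 976 CPM in FaDu and 602, 638 and 582 CPM in shNSUN2, and fell by 0.96 (SE 0.14, edgeR adjusted p = 0.00388). With all nuclear copies added to their mitochondrial genes the log2 fold change of MT-ATP6 was -0.53. The next copies, MTCO1P12 and MTND2P28, lie in the same stretch of chromosome 1 and had 94.2 and 274 CPM in shNSUN2 replicate 2 against 641 and 557 CPM in replicate 1 and 793 and 542 CPM in replicate 3. MTCO2P12 had 28.1 and MTCO3P12 22.9 CPM on average in FaDu. Reads from a mitochondrial gene and such a copy cannot be told apart here, and the levels of MT-ATP6 and, to a lesser degree, MT-ND2 are uncertain for that reason (copy counts 11.7% of those of MT-ND2 and 3.32% of those of MT-CO1).

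Downstream of MT-CO3, the complex I mRNAs MT-ND3, MT-ND4L and MT-ND4 fell. MT-ND3 had 1038, 1034 and 765 CPM in FaDu and 458, 459 and 582 CPM in shNSUN2 (-0.92, SE 0.16, edgeR adjusted p = 0.00849). MT-ND4L and MT-ND4 share 1 RNA and overlap by 7 bases, in capitals in the end of MT-ND4L, where the start codon of MT-ND4 runs into the stop codon of MT-ND4L.
MT-ND4L end (heavy strand, chrM:10746-10766): ctaaacctactccaATGCTAA
MT-ND4L had 3021, 3098 and 2687 CPM in FaDu and 1079, 1111 and 921 CPM in shNSUN2, 35.3% of the FaDu mean (-1.50, SE 0.12, edgeR adjusted p = 0.000515). MT-ND4 had 19084, 18405 and 15122 CPM in FaDu and 5686, 5972 and 4681 CPM in shNSUN2, 31.1% of the FaDu mean (-1.69, SE 0.14, edgeR adjusted p = 0.000555). The groups were far apart in both, and MT-ND4 had the lowest log2 fold change of the 37 genes. The log2 ratio of MT-ND4L to MT-ND4 per length was -0.45, -0.36 and -0.28 in FaDu and -0.18, -0.21 and -0.13 in shNSUN2 (difference 0.18, exact two-sided permutation p = 0.1, the smallest possible).

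The last heavy strand mRNAs and the light strand mRNA fell by similar amounts. MT-ND5 had 5972, 5611 and 4953 CPM in FaDu and 3937, 3524 and 3254 CPM in shNSUN2 (-0.63, SE 0.12, edgeR adjusted p = 0.0120). MT-CYB, the cytochrome b of complex III, had 2184, 1965 and 1719 CPM in FaDu and 1237, 1024 and 1185 CPM in shNSUN2 (-0.77, SE 0.13, edgeR adjusted p = 0.00737). MT-ND6, read from the opposite strand to MT-ND5, had 1468, 1434 and 1213 CPM in FaDu and 936, 848 and 743 CPM in shNSUN2 (-0.70, SE 0.13, edgeR adjusted p = 0.0104). None of these groups overlapped. The MT-ND5 call was lost without FaDu replicate 1 or 2 (adjusted p = 0.0564 and 0.0589) and the MT-ND6 call without FaDu replicate 2 (0.0539). Of the 10 mRNAs that fell, 7 were called whichever library was left out, while 4.8%, 4.38% and 4.38% of all genes were called lower without FaDu replicate 1, 2 and 3 and 5.95%, 9.08% and 11% without shNSUN2 replicate 1, 2 and 3.

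**Figure D2:**
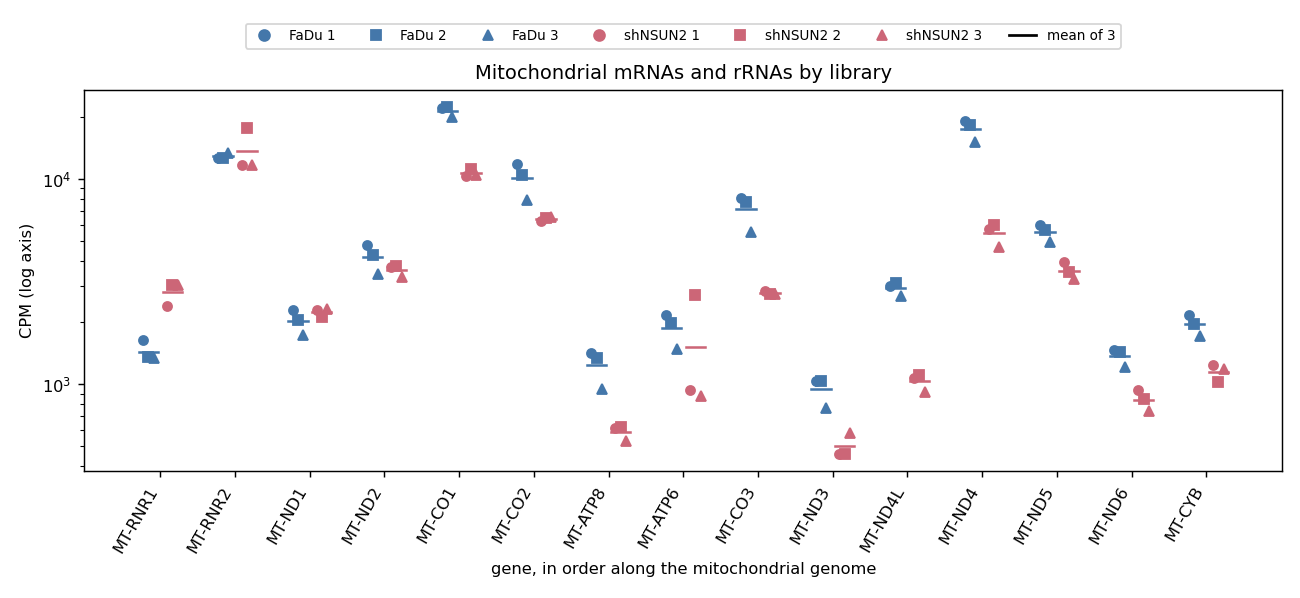
CPM (log axis) of the 13 mRNAs and 2 rRNAs in each of the 6 libraries, in genome order, with the mean of each group as a bar. In 10 mRNAs all shNSUN2 points lie below all FaDu points, MT-RNR1 shows the opposite, and replicate 2 of shNSUN2 stands above its group in MT-RNR2 and MT-ATP6.

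The mRNAs of the heavy strand did not fall by one amount along their shared transcript. Over its 12 mRNAs the log2 fold change had a Pearson r of -0.49 and a Spearman rho of -0.46 with position, and over all 13 it had a Pearson r of 0.10 with length and 0.24 with GC content. With the FaDu level per kb the Pearson r was -0.63 (Spearman rho -0.49), a relation in which the FaDu values enter both sides. These describe genes that share libraries and a precursor, and are not independent points. A base feature that sets MT-ND6 apart is its composition, with 35.6% G and 7.05% C, where the heavy strand mRNAs held 6.28% to 16.2% G and 29.5% to 36.0% C. Of the 13 mRNAs, 6 end in an incomplete stop codon in the reference, which polyadenylation completes in cells. They include mRNAs that did not pass the test (MT-ND1, MT-ND2) and those that fell (MT-CO3, MT-ND3, MT-ND4, MT-CYB).

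The make-up of the mRNA pool therefore shifted. MT-ND4 made up 22.3%, 22.5% and 22.4% of the counts of the 13 mRNAs in FaDu and 14.1%, 14.0% and 12.3% in shNSUN2. MT-ND1 went from 2.59% ± 0.0806 to 5.59% ± 0.577 and MT-ND2 from 5.29% ± 0.251 to 8.97% ± 0.264 (SD, n = 3). MT-CO2 was higher as a share, from 12.8% ± 1.06 to 15.9% ± 0.988, although its CPM fell. MT-CO1, the most counted mRNA in both groups, kept a like share, at 27.7% ± 1.93 and 26.4% ± 0.883, and its groups overlapped. Shares of a pool are bound to each other, and no test was made on them.

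**Figure D3:**
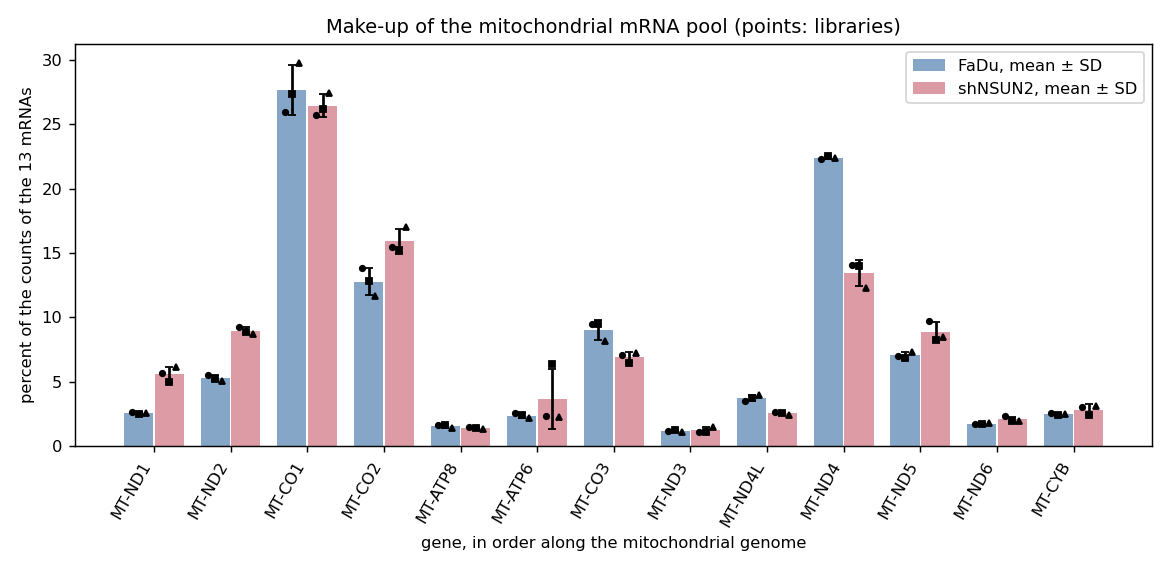
Percent of the counts of the 13 mitochondrial mRNAs that each mRNA made up, with bars for the mean of 3 libraries, error bars for the SD and points for single libraries. The MT-ND4 share is lower and the MT-ND1 and MT-ND2 shares are higher in shNSUN2, while the MT-CO1 shares overlap.

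Levels per kb ranged over 8.59 times among the mRNAs of FaDu and over 9.31 times in shNSUN2. In FaDu the order ran from MT-CO2 (14719 ± 2907 CPM per kb), MT-CO1 (13967 ± 808) and MT-ND4 (12726 ± 1538), which overlapped from each to the next, through MT-ND4L (9883 ± 736) and MT-CO3 (9089 ± 1784), to MT-CYB (1714 ± 204; SD, n = 3 throughout). The neighbours in this order from MT-ND2 to MT-CYB also overlapped. In shNSUN2 MT-CO2 (9379 ± 199) and MT-CO1 (6921 ± 277) stood apart from each other, and MT-ND4 (3952 ± 492), MT-CO3 (3557 ± 76.7), MT-ND4L (3492 ± 342) and MT-ND2 (3477 ± 234) overlapped from each to the next. MT-CYB was lowest in both groups.

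The 22 tRNAs all had counts in every library, from 1 count of MT-TS1 in shNSUN2 replicate 2 to 33356 of MT-TC in FaDu replicate 3. Their levels fell into very unequal classes. The neighbouring light strand tRNAs MT-TA, MT-TN, MT-TC and MT-TY (for Ala, Asn, Cys and Tyr) held most tRNA counts, 91.2% ± 1.21 (SD, n = 3) for FaDu against 89.4% ± 2.25 (SD, n = 3) for shNSUN2. In FaDu 3 more (MT-TP, MT-TE and MT-TL1) had means of 10 to 90 CPM, 10 had 1 to 10 CPM, and 5 (MT-TQ, MT-TM, MT-TW, MT-TS1 and MT-TD) had under 1 CPM. A tRNA is shorter than usual sequencing fragments, so part of its count may come from fragments that reach into its neighbours. Whether the libraries kept strand is not given, so counts of a light strand tRNA and of heavy strand RNA across the same place cannot be told apart.

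The 4 abundant tRNAs did not pass the test. MT-TC had 379, 429 and 446 CPM in FaDu and 324, 387 and 434 CPM in shNSUN2, and MT-TN had 339, 389 and 420 CPM against 239, 383 and 302 CPM. MT-TY had 269, 283 and 317 CPM in FaDu and 238, 261 and 310 CPM in shNSUN2, and MT-TA 148, 159 and 187 CPM against 96.6, 171 and 128 CPM. Their groups overlapped, and their log2 fold changes were -0.32 to -0.10 with edgeR adjusted p of 0.261 to 0.629. The order of the means was MT-TC, MT-TN, MT-TY and MT-TA in both groups, per kb as well, where only MT-TY and MT-TA did not overlap between neighbours.

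Of the 5 tRNAs between MT-CO3 and MT-ND5, 3 rose (MT-TR, MT-TH and MT-TS2), while the mRNAs around them fell. Of all tested genes, 8.54% were called higher and 9.97% lower. MT-TH, the tRNA-His that follows MT-ND4, had 5.85, 5.14 and 5.40 CPM in FaDu and 15.3, 9.49 and 11.7 CPM in shNSUN2 and rose by 1.15 (SE 0.20, edgeR adjusted p = 0.00883). MT-TS2, a tRNA-Ser that abuts MT-TH, had 6.41, 4.88 and 6.52 CPM in FaDu and 13.4, 8.65 and 11.1 CPM in shNSUN2 (0.89, SE 0.21, edgeR adjusted p = 0.0245). MT-TR, the tRNA-Arg between MT-ND3 and MT-ND4L, had 2.98, 3.06 and 3.06 CPM in FaDu and 5.63, 4.02 and 5.08 CPM in shNSUN2 (0.70, SE 0.20, edgeR adjusted p = 0.0441). These sit beside mRNAs with log2 fold changes of -0.92 for MT-ND3, -1.50 for MT-ND4L, -1.69 for MT-ND4 and -0.63 for MT-ND5.

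The other two, MT-TG and MT-TL2, did not pass the test. MT-TG, the tRNA-Gly between MT-CO3 and MT-ND3, had 4.20, 4.83 and 5.08 CPM in FaDu and 8.04, 5.93 and 7.38 CPM in shNSUN2 (log2 fold change 0.60, SE 0.19, edgeR adjusted p = 0.0601). MT-TL2, a tRNA-Leu that abuts MT-TS2, had 9.52, 6.55 and 9.85 CPM in FaDu and 15.9, 10.4 and 13.4 CPM in shNSUN2 (0.61, SE 0.22, edgeR adjusted p = 0.0949). Groups were separate in all 5 of these tRNAs, as they were upwards in 20.3% of all tested genes, and each of the 5 was highest in shNSUN2 replicate 1 and lowest in replicate 2 within its group. The MT-TH call held whichever library was left out. MT-TS2 was not called without FaDu replicate 1, 2 or 3 or shNSUN2 replicate 1 (adjusted p = 0.0679 to 0.0971), and MT-TR was called in 1 of the 6 fits without a library, that without shNSUN2 replicate 2. The MT-TR call was also lost with plain library totals (edgeR adjusted p = 0.0572), with no filter on low counts (0.0808), with the replicate block (0.0985) and with the block and the GC and length correction (0.0969).

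Of the 22 tRNAs 2 were called lower, MT-TT and MT-TP at the far end of the genome, where 9.97% of all tested genes were called lower. MT-TT, the tRNA-Thr that follows MT-CYB, had 7.44, 7.65 and 7.11 CPM in FaDu and 2.99, 3.10 and 3.10 CPM in shNSUN2, 41.3% of the FaDu mean (-1.27, SE 0.16, edgeR adjusted p = 0.00245). MT-TP, the tRNA-Pro that is first on the light strand transcript, had 34.3, 34.5 and 29.0 CPM in FaDu and 14.3, 17.2 and 21.7 CPM in shNSUN2 (-0.88, SE 0.18, edgeR adjusted p = 0.0146). Both lie on opposite strands at the end of the gene order, and both had separate groups, as 22.1% of all tested genes had downwards. The MT-TT call held without any single library, and the MT-TP call was lost without FaDu replicate 1 or 2 (adjusted p = 0.0588 and 0.0638). MT-TE, the tRNA-Glu between MT-TP and MT-ND6, had 22.9, 24.6 and 17.0 CPM in FaDu and 17.0, 14.0 and 14.3 CPM in shNSUN2, with a log2 fold change of -0.51 (edgeR adjusted p = 0.0847).

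**Figure D4:**
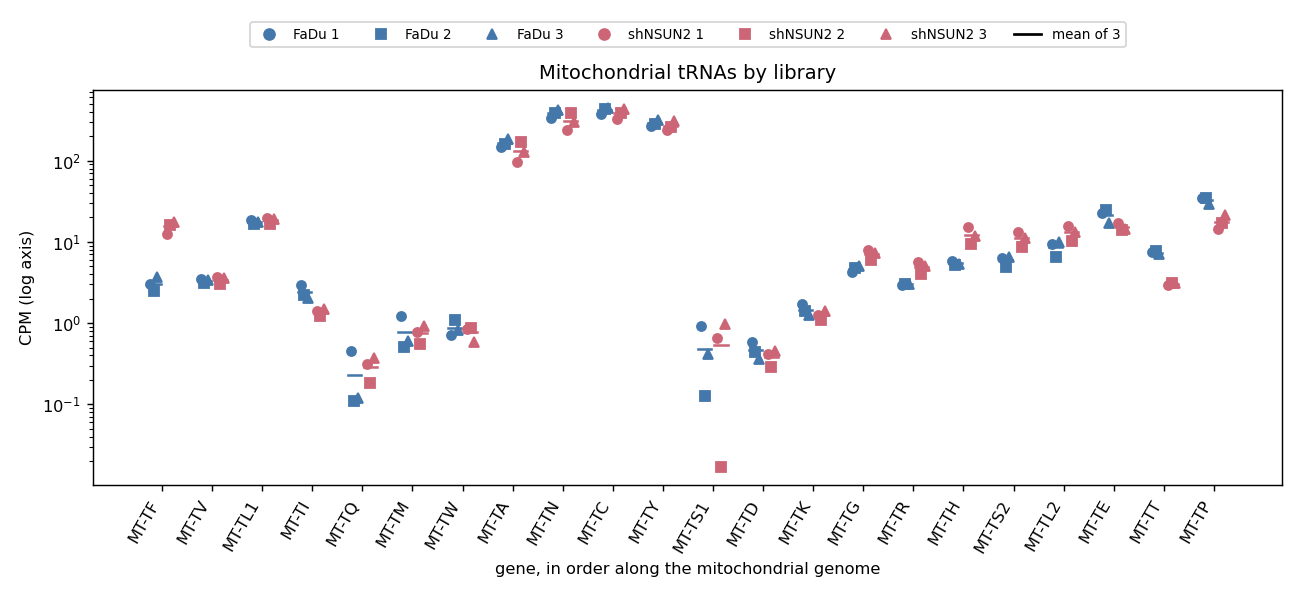
CPM (log axis) of the 22 mitochondrial tRNAs in each of the 6 libraries, in genome order, with group means as bars. MT-TA, MT-TN, MT-TC and MT-TY lie far above the others and overlap between the groups, whereas MT-TF, MT-TR, MT-TH and MT-TS2 are higher and MT-TT and MT-TP lower in shNSUN2.

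The other tRNAs did not pass the test. MT-TI, the tRNA-Ile after MT-ND1, had 2.93, 2.22 and 2.02 CPM in FaDu and 1.42, 1.21 and 1.48 CPM in shNSUN2, which did not overlap (log2 fold change -0.80, SE 0.25, edgeR adjusted p = 0.0600). MT-TL1, the tRNA-Leu after MT-RNR2, had 18.3, 16.7 and 17.8 CPM in FaDu and 19.9, 16.7 and 19.0 CPM in shNSUN2, close to equal, as MT-ND1 beside it was. MT-TK, the tRNA-Lys between MT-CO2 and MT-ATP8, had 1.72, 1.39 and 1.26 CPM against 1.26, 1.08 and 1.41 CPM. MT-TM, MT-TW, MT-TD, MT-TQ and MT-TS1, the tRNAs for Met, Trp, Asp, Gln and Ser, lay at 0.0168 to 1.23 CPM with SEs of 0.34 to 1.07, so no change of moderate size was detectable in them. Values of 4 were in excess in these counts, for a reason that is not known, so the number of fragments behind the lowest values is not known either.

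By strand, the light strand genes took 0.266%, 0.280% and 0.273% of all counts in FaDu and 0.187%, 0.211% and 0.181% in shNSUN2. The heavy strand genes took 9.84%, 9.60% and 8.44% in FaDu and 5.39%, 6.35% and 4.85% in shNSUN2. Both were lower with no overlap, to 0.707 and 0.595 times the FaDu mean. The light strand sum holds MT-ND6, which was called lower. Of the 8 light strand tRNAs, 1 (MT-TP) was called lower, beside 9.97% of all tested genes, and the groups overlapped in the other 7. The rRNAs took 1.43%, 1.42% and 1.53% of all counts in FaDu and 1.42%, 2.11% and 1.37% in shNSUN2, which overlapped. With the mRNA counts lower in the same sum, they made up 14.1%, 14.4% and 17.6% of the counts of the 37 genes in FaDu and 25.4%, 32.2% and 27.3% in shNSUN2. In share of all counts the tRNAs as a sum overlapped between the groups, at 0.140% ± 0.0140 and 0.119% ± 0.0150 (SD, n = 3).

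Nuclear genes that act on mitochondrial RNA were read in 4 lists, together 56 tested genes, of which 10 rose and 1, NSUN2, fell (median log2 fold change 0.21; edgeR adjusted p = 0.0154 to 0.0440 for the 10), where 8.54% of all tested genes were called higher and 9.97% lower. Among genes of transcription and mtDNA copying, 2 of 15 rose: SSBP1, the mitochondrial single-strand binding protein, by 0.71 (SE 0.15), and TFAM, which packs mtDNA and starts its transcription, by 0.48 (SE 0.13). POLRMT, the mitochondrial RNA polymerase, was at 0.56 (SE 0.18, edgeR adjusted p = 0.0657). Of 11 RNA processing genes 3 rose, namely HSD17B10, a subunit of mitochondrial RNase P, by 0.72, PTCD1, a pentatricopeptide RNA-binding protein, by 0.59, and ELAC2, which cuts tRNAs at their 3′ ends, by 0.62. Of 11 genes of RNA stability and decay 2 rose, SLIRP by 0.89 (SE 0.18) and PNPT1, the RNA-degrading PNPase, by 0.71. LRPPRC, which binds and stabilises mitochondrial mRNAs together with SLIRP, had 244, 273 and 256 CPM in FaDu and 316, 250 and 175 CPM in shNSUN2 (log2 fold change -0.06, SE 0.20).

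Of 20 genes of rRNA and tRNA modification 3 rose and NSUN2 fell, by 2.00 on the log2 scale (SE 0.16, edgeR adjusted p = 0.000526). Those that rose include MRM2, a methyltransferase of the 16S rRNA, by 0.98 (SE 0.21) and TRMU, a tRNA thiolase, by 0.59 (SE 0.13). The other m5C enzymes of mitochondria did not pass the test: NSUN3, which acts on tRNA-Met, was at 0.21 (SE 0.16) and NSUN4, which acts on the 12S rRNA, at 0.28 (SE 0.14). The number of these nuclear genes that rose depended on single libraries. It was 0 without FaDu replicate 1 or 2 (edgeR, with 15 and 10 at an unadjusted p under 0.05), 1 without FaDu replicate 3 and 4 without shNSUN2 replicate 1, and 14 and 10 without shNSUN2 replicate 2 or 3. Of all tested genes, 3.1%, 2.38% and 2.51% were called higher without FaDu replicate 1, 2 and 3, and 4.46%, 8.31% and 10.5% without shNSUN2 replicate 1, 2 and 3.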

How the data were processed

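RNA-seq values were analysed for 3 FaDu and 3 shNSUN2 libraries, grouped by the labels. The table deposited by the authors holds 1 estimated count per gene and library, in whole numbers. Tools listed in the submitters' processing notes, with no role, are Bowtie 0.12.2, StringTie 1.3.0 and HISAT2 2.0. The build listed is mm8, a mouse build that cannot give the human gene identifiers of the table. Not given in the sources used here are the human build and annotation, poly(A) selection and strandedness. Values of 4 outnumbered the mean of values 3 and 5 by 3.25 to 3.81 times in each library, for a reason that is not known, so no counting intervals are given.

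Genes were kept by filterByExpr (minimum count 10, minimum total 15) and tested with edgeR 4.0.16 in R 4.3.3 (TMM, robust quasi-likelihood, group only), with Benjamini-Hochberg adjustment over 19081 genes and a threshold of 0.05. Standard errors are the log2 fold change divided by the square root of F. Positions, lengths and sequences are those of GENCODE 29 on GRCh38. Ratios between genes were compared by exact permutation over libraries. The test was checked on simulated counts. Alternatives were other scalings, DESeq2 1.42.0, no filter, counts divided by 4, a replicate block, a GC and length correction (mgcv 1.9.3), nuclear copies added and each library left out. The genes and lists were chosen with earlier results of these data known. Named genes were all 37 MT- genes, NSUN2, for each list of nuclear genes acting on mitochondrial RNA the 3 called genes with the lowest adjusted p, the 5 nuclear copies with the highest mean count, and markers of other cell types above 5 CPM. POLRMT, LRPPRC, NSUN3, NSUN4 and the RNAs without a poly(A) tail were named after their values were seen. Some members of the marker lists and of the list of RNAs without a poly(A) tail are not reported here.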

Additional observations from a re-analysis of the deposited data

How the results depend on the processing

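The 10 mRNAs called lower stayed 10 under every alternative that kept all libraries, and 0 were called higher under any. Those alternatives called 6.01% to 13.6% of all tested genes lower. With one library left out, 7 to 10 mRNAs were lower, 1 to 2 tRNAs lower and 2 to 5 tRNAs higher. Of all tested genes, 4.38% to 11% were then lower and 2.38% to 10.5% higher. The GC and length correction called 4 tRNAs lower: MT-TT, MT-TP, MT-TI (edgeR adjusted p = 0.0335) and MT-TE (0.0404). It called 11.6% of all tested genes lower. MT-TI was also called lower with plain library totals (edgeR adjusted p = 0.0446) and with counts divided by 4 (0.0461). MT-TE was also called lower with the correction and the block (edgeR adjusted p = 0.0371). Over all genes 3532 were called, against 2370 with the replicate block, 5008 with the GC and length correction, 3531 with both and 4244 with DESeq2. Leaving out one library gave 1354 to 4271, with 1596, 1356 and 1354 without FaDu replicate 1, 2 and 3 and 2069 without shNSUN2 replicate 1. The fall in mRNA share, 3.99 percentage points, ranged from -4.46 to -3.70 with one library left out. The log2 ratio differences then ranged from 0.75 to 1.05 (12S over 16S), -0.83 to -0.07 (MT-ATP8 over MT-ATP6) and 0.14 to 0.23 (MT-ND4L over MT-ND4), and rho with position from -0.50 to -0.41. Direction turned only in genes that were not called, and the cause was not tested. MT-TV was at -0.012 with plain totals, -0.092 with the GC and length correction and -0.099 with that and the block, and MT-TL1 at -0.059 and -0.061 in the same corrected fits. MT-TM was at 0.013 with the block, and MT-TS1 at -0.26 with the block, -0.11 with the correction and -0.45 with both. With one library left out MT-TV ranged from -0.016 to 0.13, MT-RNR2 from -0.14 to 0.20, MT-TM from -0.28 to 0.42, MT-TW from -0.31 to 0.00085 and MT-TS1 from -0.53 to 0.98. Whether replicate numbers pair the samples is not known, as the labels do not say. Correlations of same-numbered deviations were -0.0364, 0.0235 and 0.00744, and not every sample correlated best with its own number. Such values cannot show whether same-numbered samples were handled together. The replicate block called 10 mRNAs lower, 2 tRNAs lower and 3 higher, with MT-TR at an edgeR adjusted p of 0.0985. With the block, 7.34% of all tested genes were called lower and 5.08% higher. Counts divided by 4 left 35 of the 37 genes to test. Depth limits the tRNAs under 1 CPM.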
